A study of Drosophila melanogaster with 25 samples.

Results

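The RNA of wing imaginal discs heterozygous for a mutation in RpS3 was compared with and without overexpression of puckered (puc), an inhibitor of the JNK pathway. The members of the comparison were the 3 libraries labelled RpS3puc and the 2 libraries labelled RpS3, that is 5 of the 19 libraries of the series, and all 13955 genes of the deposited tables were considered. Each library came from 50 whole wing discs of wandering L3 Drosophila melanogaster larvae raised at 25 °C. The labels name the replicates as separate samples but do not say that they came from separate crosses, so the p-values measure only the spread between these samples.

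RpS3 discs carried FRT82B, RpS3[Plac92] and ubi-GFP over a wild-type chromosome. RpS3puc discs carried FRT82, RpS3[Plac92] and ubi-GFP in the same way, and on their second chromosomes esg-Gal4 with UAS-GFP over UAS-Puc. Both groups were therefore heterozygous for RpS3[Plac92] and expressed GFP from the ubi-GFP transgene. The RpS3 libraries had no esg-Gal4, UAS-GFP or UAS-Puc, so that puc overexpression cannot be told apart from the driver, the additional GFP or the second chromosomes that carried them. The driver directs UAS transgenes only to cells in which esg-Gal4 is active, while RNA was taken from the whole disc. The 8 wild-type (WT) libraries are given as levels for orientation and entered no test here.

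JNK, encoded in Drosophila by basket (bsk), is the last kinase of a stress-activated cascade. Signals that enter through receptors such as Grindelwald pass from MAP kinase kinase kinases to the JNK kinase Hemipterous and then to JNK, which acts on transcription factors such as Jra (Jun) and kay (Fos). puc is itself transcribed in response to JNK and encodes a phosphatase that inactivates JNK, which closes a negative feedback loop. In imaginal discs the pathway is known for its part in cell death, in growth control and in the repair of wounds. RpS3 is a protein of the small ribosomal subunit, and flies with 1 functional copy show the Minute phenotype of slow development.

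The overexpressed gene was examined before all others. puc stood at 13.0 and 15.0 FPKM (fragments counted per kilobase of a transcript relative to sequencing depth, the unit of all levels below) in the RpS3 libraries and at 160, 225 and 186 in the RpS3puc libraries, while the 8 WT libraries lay between 10.7 and 17.7. All 3 RpS3puc libraries were thus far above every RpS3 and WT library. The mean was 13.6 times higher, and the difference on the scale of log2(FPKM + 1) was 3.66 ± 0.14 (SE, n = 2 and 3, limma, Benjamini-Hochberg adjusted p = 3.42e-06). Reads from the UAS transgene count towards puc, so the value does not separate transgene from endogenous transcript. The level of esg, the gene whose regulatory DNA drives Gal4, was not looked up by name here.

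The mutated ribosomal gene did not separate the groups. RpS3 stood at 1344 and 1314 FPKM in RpS3 discs and at 1366, 1271 and 1264 in RpS3puc discs, so that the groups overlapped (log2 difference -0.03 ± 0.07, adjusted p = 0.761, limma). All 5 libraries were below the WT range of 2057 to 3024. A marker of transgenes did separate the groups. The eye pigment transporter gene white (w), which fly transgenes commonly carry as a marker, was named here after its values were seen. It stood at 26.0 and 26.8 FPKM in RpS3 discs and at 137, 136 and 127 in RpS3puc discs. The log2 difference was 2.29 ± 0.07 (adjusted p = 4.43e-07, limma). The WT median of w was 0.04, but the highest WT library, at 29.2, was above both RpS3 libraries.

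Depth was nearly equal, with 15.9 to 16.2 M reads implied for the 5 libraries. Spearman's rho over genes was 0.996 within RpS3, 0.991 to 0.996 within RpS3puc and 0.966 to 0.979 between the groups, as a description of the libraries. Of the disc epithelium's markers, vg stood at 60.0 and 58.5 FPKM in RpS3 discs and at 45.0, 54.9 and 49.5 in RpS3puc discs (log2 difference -0.25, adjusted p = 0.0567, limma), and rn at 46.9 and 43.2 against 33.8, 41.005 and 35.9 (-0.28, adjusted p = 0.0441). Both were called lower with no overlap, though neither with the effect of transcript length removed, as described below (adjusted p = 0.642 and 0.902), nor without RpS3 replicate 1, RpS3 replicate 2 or RpS3puc replicate 3. The marker nub, at 61.5 to 87.2 in the 5 libraries, was not called. A gene was tested when 2 or more of the 5 libraries reached 1 FPKM, and of the 7883 such genes 3675 (46.6%) passed an adjusted p of 0.1. Among them 1698 rose (21.5% of the genes tested) and 1977 fell (25.1%), and 3654 of the called genes had no overlap between the groups, against 64.3% of all genes tested. Most differences were small. The median size among called genes was 0.38 on the log2 scale, and 64 genes rose and 87 fell by at least 1. With a single RpS3 library as reference the number of calls was 1833 (without RpS3 replicate 1) or 1306 (without RpS3 replicate 2).

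The differences moved with the length of the transcript. In the decile of genes with the shortest transcripts, up to 836 nucleotides, 52.3% rose and 8.84% fell, with a median log2 difference of 0.26. In the decile with the longest, from 5303 nucleotides, 1.04% rose and 69.4% fell, with a median of -0.38. Genes that rose had a median length of 1234 nucleotides, those that fell of 3678, and all genes tested of 2040. Each RpS3puc library showed the gradient against the mean of RpS3, and RpS3puc replicate 1 showed the steepest, from 0.40 in the shortest decile to -0.55 in the longest. RpS3puc replicate 2 had the flattest, from 0.17 to -0.25, and the RpS3 libraries differed from each other by 0.04 and -0.03 in the same deciles. The part that length, or whatever moves with it, plays in the results was not tested. Once the trend with length was subtracted, 956 of 7690 genes (12.4%) rose and 998 (13%) fell, and 1538 genes were called in the same direction with and without the trend. Values with the trend removed are given beside the gene groups below, since many of them hold mostly short or mostly long genes.

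**Figure D1:**
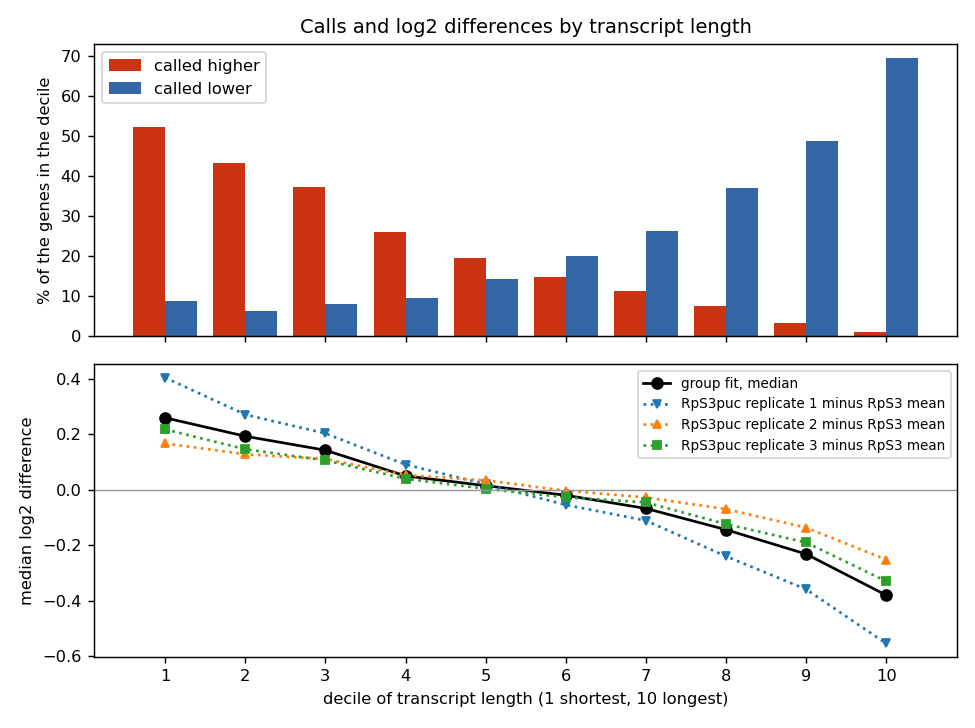
Upper panel, percentage of tested genes called higher (red) or lower (blue) in RpS3puc, by decile of transcript length. Lower panel, median log2 difference per decile for the group comparison (black) and for each RpS3puc library against the mean of the 2 RpS3 libraries (coloured). The share called higher ran from 52.3% in the shortest decile to 1.04% in the longest, the share called lower from 8.84% to 69.4%, and RpS3puc replicate 1 had the steepest gradient.

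The JNK pathway itself was examined next, since puc acts on it. Of 19 pathway genes tested, puc, whose rise was set by the design, and Traf4 rose, 8 fell and 9 did not pass the test. That was 10.53% higher and 42.11% lower, against 21.5% and 25.1% of all genes tested. The median log2 difference was -0.18, against -0.02 over all genes tested. Gadd45, an activator of the MAP kinase kinase kinase Mekk1, fell most. It stood at 61.9 and 59.4 FPKM in RpS3 discs and at 35.5, 34.2 and 38.0 in RpS3puc discs, with no overlap and with every RpS3puc library still above the WT range of 8.82 to 16.4. The log2 difference was -0.74 ± 0.08 (adjusted p = 0.000629, limma), and the fall was larger, -0.83, without the length trend.

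Upstream in the cascade, several kinases fell together. The JNK kinase hep stood at 20.6 and 19.5 FPKM in RpS3 discs and at 11.7, 14.2 and 14.7 in RpS3puc discs (log2 difference -0.54 ± 0.11, adjusted p = 0.00705, limma). The mixed-lineage kinase slpr, which acts on Hep, stood at 17.6 and 17.8 against 10.3, 12.3 and 12.2 (-0.57 ± 0.10, adjusted p = 0.00479). The Ste20-type kinase msn, upstream of JNK in dorsal closure, stood at 78.4 and 77.8 against 46.3, 58.8 and 60.3 (-0.50 ± 0.11, adjusted p = 0.0103). In all 3 of these genes RpS3puc replicate 1 was the lowest of the 5 libraries and the groups did not overlap. The other genes that fell were the kinases wnd (-0.44), Mkk4 (-0.39) and Ask1 (-0.35) and the adaptor Traf6 (-0.20, adjusted p = 0.0914), the last not called in 11 of 14 alternatives. The kinases are encoded by long transcripts, the median length of the pathway list being 3169 nucleotides. Over all genes with a known length, 12.4% rose and 13% fell once the length trend was removed. With the length trend removed, only Gadd45, slpr (-0.28, adjusted p = 0.0909) and Jra (-0.26, adjusted p = 0.0898) were called lower among the 19, while puc, Traf4, wgn (0.25, adjusted p = 0.0993) and kay (0.26, adjusted p = 0.0906) were called higher, so that the balance of the list turned from 2 higher and 8 lower to 4 higher and 3 lower.

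The core of the cascade did not pass the test. JNK itself, bsk, stood at 61.8 and 63.2 FPKM in RpS3 discs and at 56.6, 57.1 and 58.4 in RpS3puc discs (log2 difference -0.12 ± 0.07, adjusted p = 0.179, limma). The AP-1 components Jra (-0.18, adjusted p = 0.146) and kay (0.03, adjusted p = 0.831) were likewise not called. Nor were the TNF receptors grnd (-0.15) and wgn (0.19), their ligand egr (0.28), the kinase Tak1 (-0.06), its partner Tab2 (0.07) or the scaffold POSH (-0.20). Traf4, an adaptor of the pathway, stood at 19.9 and 14.7 against 21.0, 26.8 and 23.0 FPKM, above the WT range of 7.96 to 10.4 in every library (0.43 ± 0.14, adjusted p = 0.0399). Its call rested on RpS3 replicate 2, without which the adjusted p was 0.33. Ask1 and wnd were not called without that library either (adjusted p = 0.22 and 0.14), with differences of -0.28 and -0.41, and the list then held 1 gene higher and 5 lower. Without RpS3puc replicate 1 it held 4 higher and 9 lower, and egr and wgn were called higher.

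Among 14 known JNK target genes, 12 were tested, of which 2 (16.7%) rose, 3 (25%) fell and 7 did not pass the test. Of all genes tested 21.5% rose and 25.1% fell. The targets that rose included puc, whose rise was set by the design. The median log2 difference was -0.26, and with the length trend removed 2 rose and 2 fell with a median of -0.02. scarface (scaf), a secreted serine protease homologue that is a transcriptional target of JNK, fell to less than its level in every RpS3 library. It stood at 27.2 and 29.1 FPKM in RpS3 discs and at 12.7, 14.6 and 12.5 in RpS3puc discs, and the WT libraries had a median of 15.4 (11.1 to 26.2). The log2 difference was -1.04 ± 0.09 (adjusted p = 0.00032, limma). reaper (rpr), which triggers apoptosis by binding the caspase inhibitor Diap1, stood at 26.6 and 24.8 against 13.8, 13.7 and 16.5 FPKM, with WT between 14.6 and 25.3 (-0.77 ± 0.10, adjusted p = 0.00172). Both genes fell by a similar amount without the length trend, by 0.89 and 0.98. The actin cross-linker gene cher also fell (-0.48 ± 0.09, adjusted p = 0.00711), with 59.2 and 53.4 against 38.9, 44.7 and 37.2 FPKM, but its value was -0.06 (adjusted p = 0.703) without the length trend.

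The 2 targets that rose were puc itself, from its transgene included, and the heat shock gene Hsp68, described below with its family. The other targets did not pass the test. The pro-apoptotic gene hid stood at 36.6 and 39.3 against 25.4, 33.3 and 34.8 FPKM (log2 difference -0.29, adjusted p = 0.105, limma). The matrix metalloproteinase Mmp1 stood at 29.9 and 30.2 against 20.2, 23.1 and 30.0 (-0.30, adjusted p = 0.129), where RpS3puc replicate 3 overlapped with RpS3. Without that library Mmp1 passed (adjusted p = 0.014), as did hid (0.057), and 5 targets were called lower. The relaxin-like hormone Ilp8, which delays metamorphosis when discs grow poorly, stood at 4.23 and 1.63 against 1.96, 1.52 and 1.23 FPKM, so that the groups overlapped (-0.54, adjusted p = 0.161), and all 5 libraries were above the WT maximum of 0.408. Without RpS3 replicate 2 it was called lower (adjusted p = 0.043). The JAK/STAT ligands upd1 (0.23) and upd3 (0.14) and the transcription factors Atf3 (-0.24) and Ets21C (-0.21) were not called, and upd2 and NLaz were under the expression filter.

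**Figure D2:**
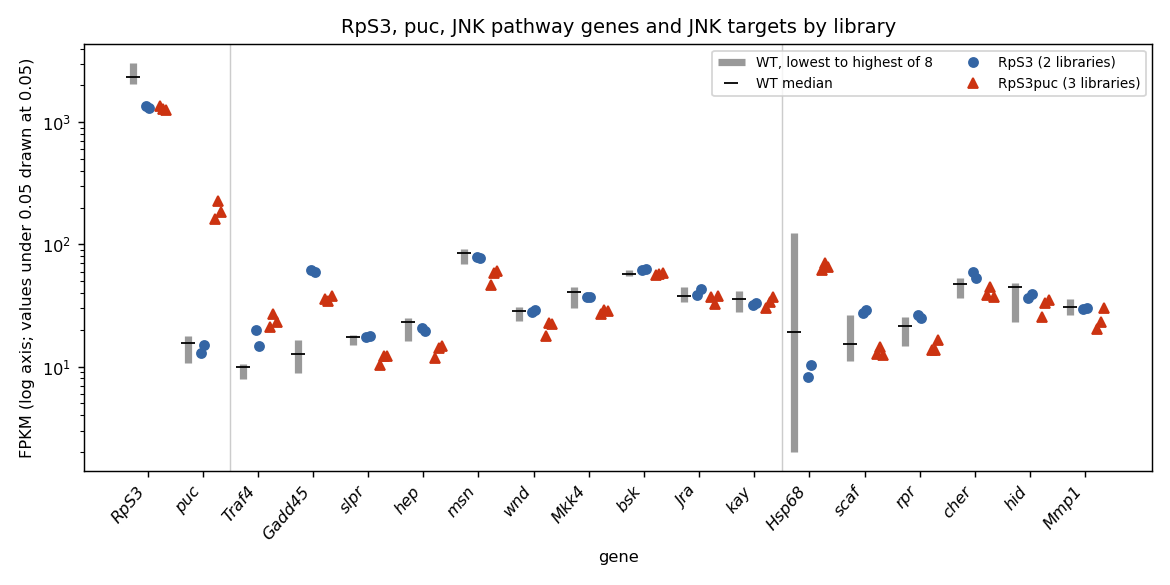
FPKM (log axis) of RpS3, puc, JNK pathway genes and JNK target genes in the 2 RpS3 libraries (blue circles) and 3 RpS3puc libraries (red triangles), with the WT range (grey bar) and median (black dash) of 8 libraries. puc rose from 13.0 and 15.0 to between 160 and 225, Gadd45, scaf and rpr fell with no overlap, and bsk, Jra and kay were not called.

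The largest rise after puc among stress genes was in the heat shock genes. In the list below 57.14% rose and 4.76% fell, against 21.5% and 25.1% of all genes tested. Over all genes with a known length, 12.4% rose and 13% fell once the length trend was removed. Of 21 heat shock genes and cognates tested, 12 rose, 1 fell and 8 did not pass the test, with a median log2 difference of 1.03, and with the length trend removed 12 rose and none fell. Hsp68, an inducible Hsp70-type chaperone, stood at 8.16 and 10.3 FPKM in RpS3 discs and at 61.5, 69.9 and 65.9 in RpS3puc discs (2.71 ± 0.10, adjusted p = 1.93e-06, limma). Hsp70Bb, an inducible cytosolic chaperone, stood at 8.37 and 12.8 against 87.2, 112 and 92.1 (3.10 ± 0.18, adjusted p = 0.000146). The other Hsp70 genes among the 10 largest rises, Hsp70Bc, Hsp70Bbb, Hsp70Ba and Hsp70Ab, rose by 2.90, 2.90, 2.56 and 2.46. The Hsp70 genes are nearly identical copies, among which reads may have been divided, so they are better read as a single group than as separate genes. In each of these genes every RpS3puc library was above both RpS3 libraries, as the rule for the 10 largest rises required.

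The small heat shock proteins followed in part. Hsp22, Hsp26, Hsp23, Hsp27 and Hsc70-4 were not selected by the rule for naming genes. Hsp22, the mitochondrial small heat shock protein, stood at 5.57 and 4.11 against 20.4, 21.7 and 19.1 FPKM (1.89). Hsp26 stood at 324 and 288 against 771, 796 and 676 (1.28), and Hsp23 at 1901 and 2404 against 4469, 4086 and 4569 (1.03). These 3 genes are chaperones that hold unfolded proteins, and none of their RpS3puc libraries overlapped with RpS3. Hsp27 (0.24, adjusted p = 0.124) and the constitutive Hsc70-4 (0.03, adjusted p = 0.803) were not called, and the mitochondrial Hsc70-5 fell (-0.26, adjusted p = 0.0395), though not with the length trend removed (adjusted p = 0.216) nor without RpS3 replicate 1 (0.25) or RpS3 replicate 2 (0.12). Heat shock genes varied widely among the 8 WT libraries, where Hsp68 ran from 2.02 to 124 FPKM and Hsp70Bb from 0.63 to 121, so that all RpS3puc values of both genes lay inside the WT range. The summed level of the heat shock list in RpS3puc, 11830 to 12240 FPKM, also lay inside its WT range of 8347 to 13980. When the spread of all 19 libraries was used, 4 heat shock genes were called higher and Hsp68 was not among them (adjusted p = 0.13, limma).

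Genes of the Enhancer of split complex, the direct targets of Notch signalling in the disc, rose nearly throughout. Of 11 tested, 10 rose and 1 did not pass the test, with a median log2 difference of 0.55. The share that rose was 90.91%, against 21.5% of all genes tested, or 12.4% with the length trend removed. The basic helix-loop-helix repressor E(spl)m5-HLH stood at 2.32 and 2.24 FPKM in RpS3 discs and at 5.87, 6.26 and 6.67 in RpS3puc discs (1.15 ± 0.12, adjusted p = 0.000631, limma). The Bearded family gene E(spl)m4-BFM stood at 49.8 and 55.3 against 117, 108 and 82.9 (0.94 ± 0.14, adjusted p = 0.00376), and E(spl)malpha-BFM at 200.2 and 195 against 349, 321 and 344 (0.77 ± 0.07, adjusted p = 0.000383). In these 3 genes every RpS3puc library was above the WT maxima of 3.88, 73.9 and 323, except RpS3puc replicate 2 for E(spl)malpha-BFM, at 321. The complex consists of short genes, with a median length of 957 nucleotides. With the length trend removed 7 of the 11 rose, none fell and the median was 0.36, and 7 rose without RpS3 replicate 1, as also without RpS3 replicate 2.

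Notch itself (N), the receptor, moved the other way. It stood at 55.1 and 59.7 FPKM in RpS3 discs and at 32.7, 43.4 and 41.7 in RpS3puc discs (-0.54 ± 0.12, adjusted p = 0.00983, limma). N has a long transcript, and the call was lost with the length trend removed (adjusted p = 0.705) and without RpS3 replicate 2 (0.10). Of 6 proneural and sensory organ precursor genes tested, 3 rose (50%) and none fell (median 0.28), against 21.5% and 25.1% of all genes tested. The same counts were found with the length trend removed, where 12.4% of all genes with a known length rose and 13% fell. The proneural transcription factors achaete (ac) and scute (sc) stood at 29.5 and 27.4 against 40.3, 43.6 and 37.6 FPKM (0.49) and at 23.7 and 25.7 against 32.5, 32.3 and 36.8 (0.44). senseless (sens), which marks sensory organ precursors, stood at 2.41 and 3.19 against 3.94, 4.61 and 5.26 (0.56), and lost its call without RpS3 replicate 1 (adjusted p = 0.17). ac and sc lay above the WT maxima of 36.5 and 32.1 FPKM in every RpS3puc library.

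Ribosomal protein genes, which encode the ribosome's protein subunits and include the locus mutated in both groups, rose by small amounts. The shares that rose were 54.55% of the small-subunit and 51.02% of the large-subunit genes, against 21.5% of all genes tested. Falls made up 3.03% and 4.08%, against 25.1%. After removal of the length trend, 12.4% of all genes with a known length rose and 13% fell. Of 33 small-subunit genes tested 18 rose and 1 fell, with a median log2 difference of 0.23, but with the length trend removed 4 rose and 5 fell, with a median of 0.04. Of 49 large-subunit genes 25 rose and 2 fell, with a median of 0.19, but with the length trend removed 5 rose and 8 fell, with a median of -0.002. RpL35A had the largest rise, from 1640 and 1430 FPKM to 2615, 2218 and 2232 (0.62 ± 0.10, adjusted p = 0.00395, limma). RpS29 stood at 3040 and 3070 against 4992, 4361 and 4414 (0.58 ± 0.08, adjusted p = 0.00275). RpL28 (0.58), RpL37-1 (0.54), RpS26 (0.50) and RpS20 (0.48) followed, and RpS3puc replicate 1 was the highest library in each of these 6 genes. RpLP2 (-0.22) and RpL24 (-0.17) fell, with adjusted p-values of 0.0696 and 0.0857. These genes have short transcripts, with a median length of 877 nucleotides for the small-subunit list and 948 for the large-subunit list. Without RpS3 replicate 1, 9 small-subunit and 11 large-subunit genes rose, without RpS3 replicate 2 these numbers were 3 and 4, no gene fell in either setting, and RpS20 was not called in the second (adjusted p = 0.13). Without RpS3puc replicate 1, 21 small-subunit genes rose and 3 fell, and 28 large-subunit genes rose and 6 fell, whereas no gene of either list fell without RpS3puc replicate 2 or RpS3puc replicate 3.

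The mitochondrial translation and respiration genes, also short, behaved alike. In the lists below 63.38% and 54.41% rose, against 21.5% of all genes tested. Falls made up 0% and 4.41%, against 25.1%. After removal of the length trend, 12.4% of all genes with a known length rose and 13% fell. Of 71 mitochondrial ribosomal protein genes 45 rose and none fell (median 0.27), and with the length trend removed 7 rose and 4 fell (0.04). The largest rise was in mRpS10, a small-subunit protein, from 80.7 and 73.1 FPKM to 116, 114 and 117 (0.59 ± 0.07, adjusted p = 0.00155, limma). Of 68 oxidative phosphorylation genes 37 rose and 3 fell (median 0.25), and with the length trend removed 6 rose and 5 fell (0.02). SdhC, a membrane subunit of complex II, stood at 123 and 116 against 200, 170 and 176 FPKM (0.60 ± 0.08, adjusted p = 0.00255), and it was called higher without the trend (adjusted p = 0.0177). SdhA, the flavoprotein of the same complex, fell from 79.9 and 76.5 to 63.0, 68.7 and 68.8 FPKM (-0.22, adjusted p = 0.0425). ATPsynbeta, a catalytic subunit of ATP synthase, fell from 713 and 728 to 572, 555 and 582 (-0.34, adjusted p = 0.00771). Without RpS3 replicate 1 the genes that rose numbered 27 and 23 in these lists and without RpS3 replicate 2 they numbered 12 and 5, with SdhA no longer called in either setting and ATPsynbeta at an adjusted p of 0.10 in the second.

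The machinery that brings nascent proteins into the endoplasmic reticulum kept its direction. Its list held 71.43% that rose and 14.29% that fell, against 21.5% and 25.1% of all genes tested. Over all genes with a known length, 12.4% rose and 13% fell once the length trend was removed. Of 14 genes of the signal recognition particle and translocon 10 rose and 2 fell (median 0.38), and with the length trend removed 6 rose and 1 fell (0.19). Sec61gamma, a subunit of the channel, stood at 217 and 222 FPKM against 375, 304 and 360 (0.65 ± 0.10, adjusted p = 0.00294, limma). SsRbeta, of the translocon-associated complex, stood at 264 and 266 against 401, 371 and 446 (0.61 ± 0.09, adjusted p = 0.0027). The groups did not overlap in either gene, and both were called without the trend (adjusted p = 0.0228 and 0.017). Srp14 rose as well (0.51), whereas Sec63 (-0.36) and Srp54k (-0.31), whose product binds signal peptides, fell. Of the last 3, Srp14 and Sec63 were not called with the length trend removed, and neither Sec63 nor Srp54k was called without RpS3 replicate 2 (adjusted p = 0.17 and 0.20).

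Other genes of protein synthesis moved in both directions. Of 45 translation factors 8 rose (17.8%) and 13 fell (28.9%), with a median of 0.01, against 21.5% and 25.1% of all genes tested. With the length trend removed 4 rose and 8 fell. The poly(A)-binding protein gene pAbp stood at 766 and 747 FPKM in RpS3 discs and at 491, 552 and 546 in RpS3puc discs (-0.51 ± 0.08, adjusted p = 0.00324, limma). The initiation factor eIF6, which keeps the large ribosomal subunit from joining early, stood at 295 and 243 against 374, 330 and 340 (0.38 ± 0.10, adjusted p = 0.0194), above the WT maximum of 152 in all 5 libraries, and lost its call with the trend removed (adjusted p = 0.191) and without RpS3 replicate 2 (0.22). Of 18 genes on the ribosome biogenesis list 3 rose (16.7%) and 7 fell (38.9%), with a median of -0.15. None rose and 3 fell with the length trend removed. The list was matched by symbol and held pes (peste), which is not a ribosome biogenesis gene. Both counts of falls include pes, at -0.88 and, with the trend removed, -0.77. Myc, the growth-promoting transcription factor, stood at 34.3 and 33.0 against 12.4, 20.7 and 18.8 FPKM (-0.95 ± 0.20, adjusted p = 0.0122), with WT between 26.4 and 57.7, and was not called with the length trend removed (adjusted p = 0.125). Nopp140, a nucleolar protein, fell from 125 and 106 to 75.5, 79.8 and 82.1 (-0.54), also with the trend removed (adjusted p = 0.0166). The aminoacyl-tRNA synthetases (32 tested) held 4 that rose (12.5%), among them the mitochondrial IleRS-m (0.33). They held 8 that fell (25%), among them the mitochondrial LeuRS-m (-0.38). With the trend removed 4 rose and 2 fell. Without RpS3 replicate 1 the genes that rose and fell numbered 4 and 6, 2 and 3, and 1 and 3 in these 3 lists, and without RpS3 replicate 2 they numbered 0 and 6, 0 and 6, and 1 and 3. IleRS-m and LeuRS-m were not called without RpS3 replicate 1 (adjusted p = 0.11 and 0.18), nor IleRS-m without RpS3 replicate 2 (0.16).

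**Figure D3:**
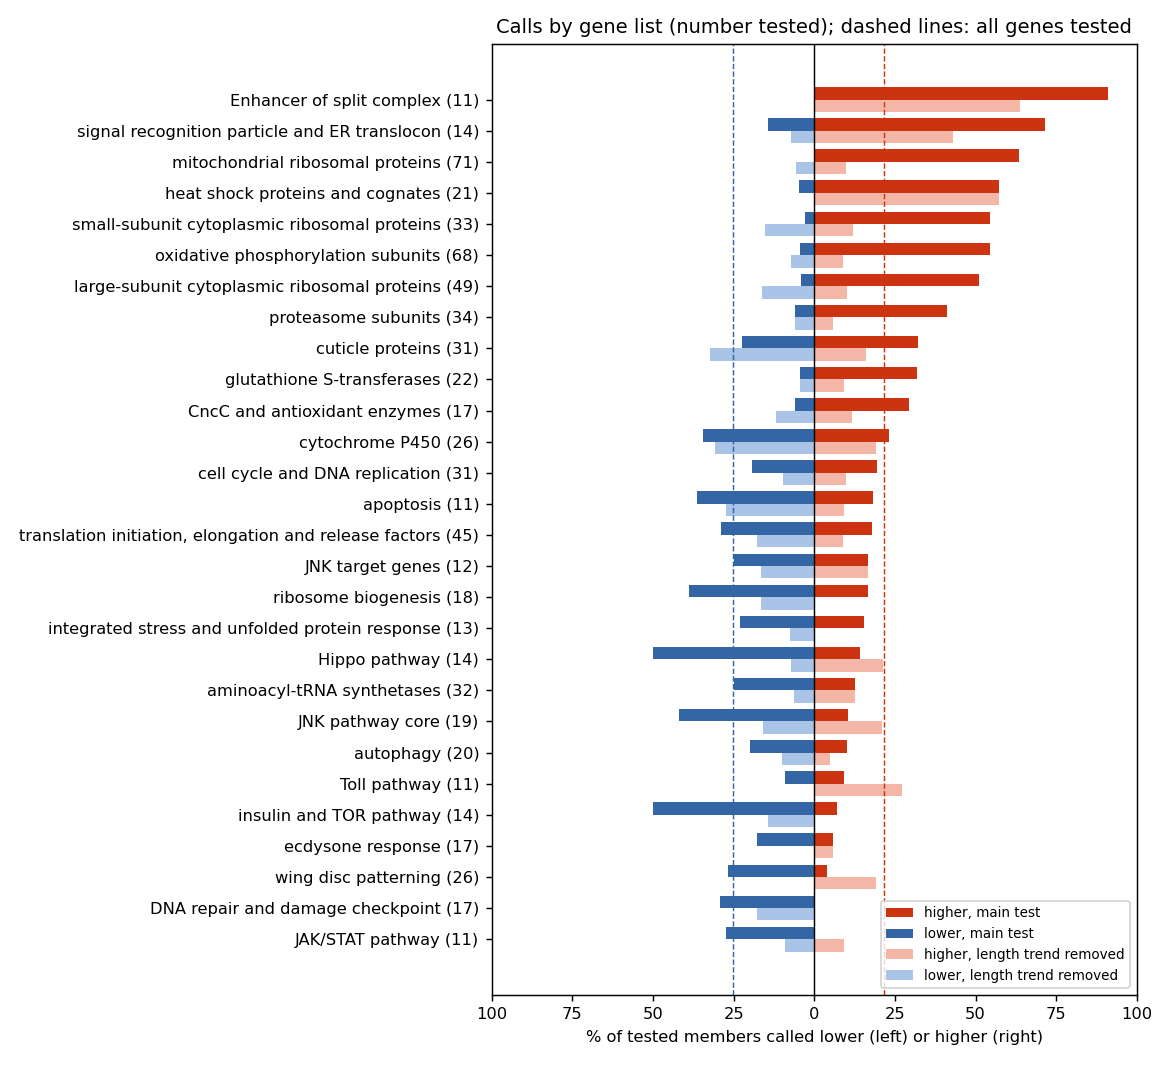
Percentage of tested members called higher (right) or lower (left) in RpS3puc for each gene list with at least 10 genes tested, in the main test (dark) and with the length trend removed (pale); dashed lines give 21.5% higher and 25.1% lower, the shares over all genes tested. The heat shock list held 12 of 21 higher in both, while the mitochondrial ribosomal list went from 45 to 7 of 71 higher.

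Genes of stress defence were examined next. Of 13 genes of the integrated stress and unfolded protein responses 2 rose (15.4%) and 3 fell (23.1%), against 21.5% and 25.1% of all genes tested. With the length trend removed none rose and 1 fell. Without RpS3puc replicate 1, 4 rose and 3 fell. The transcription factor Xrp1, which mediates much of the response to ribosomal protein mutations, stood at 492 and 446 FPKM in RpS3 discs and at 322, 382 and 359 in RpS3puc discs (-0.41 ± 0.09, adjusted p = 0.0108, limma). The groups did not overlap, and all 5 libraries were above the WT maximum of 207. With the length trend removed the difference was smaller, at -0.24 (adjusted p = 0.0993), and without RpS3 replicate 1 the call was lost (0.11). The eIF2alpha kinase Gcn2 (-0.54) and the sensor Ire1 (-0.43) fell and the translation inhibitor Thor (0.60) rose, none of them with the trend removed (adjusted p = 0.168, 0.228 and 0.218). Thor was not called without RpS3 replicate 1 (0.19), and Ire1 was not called without RpS3 replicate 1 (0.13) or RpS3 replicate 2 (0.17).

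Antioxidant and detoxification genes moved in both directions. Of 17 CncC pathway and antioxidant genes 5 rose (29.4%) and 1 fell (5.88%), with a median of 0.12, against 21.5% and 25.1% of all genes tested. With the length trend removed 2 rose and 2 fell. The peroxiredoxin Prx2 stood at 595 and 512 against 850, 789 and 699 FPKM (0.49 ± 0.10, adjusted p = 0.00843, limma), above the WT maximum of 479.7 in all 5 libraries, and without RpS3 replicate 2 its adjusted p was 0.11. Of 22 glutathione S-transferases 7 rose (31.8%) and 1 fell (4.5%), with a median of 0.22. With the length trend removed 2 rose and 1 fell with a median of -0.01. GstE1 stood at 54.5 and 50.1 against 92.9, 85.8 and 67.7 FPKM (0.63 ± 0.13, adjusted p = 0.0078). Without RpS3 replicate 1 the antioxidant genes held 3 that rose and without RpS3 replicate 2 none, and the glutathione S-transferases 4 and 3.

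The cytochrome P450 family, which oxidises lipids, hormones and toxins, held some of the largest differences. Of 26 tested 6 rose (23.1%) and 9 fell (34.6%), against 21.5% and 25.1% of all genes tested, and with the length trend removed 5 and 8. Cyp4p1 stood at 48.6 and 27.7 FPKM in RpS3 discs and at 206, 219 and 198 in RpS3puc discs, far above the WT maximum of 32.6 (2.46 ± 0.22, adjusted p = 0.00172, limma). Cyp4p2 stood at 142 and 99.1 against 449, 517 and 469 (2.00 ± 0.14), and Cyp4p3 at 1.23 and 0.776 against 3.07, 4.59 and 3.91 (1.27). The 3 are related genes of the Cyp4p subfamily, and reads may have been shared among them. In the other direction, Cyp6t3 stood at 5.28 and 4.55 against 0.186, 0.259 and 0.407 FPKM (-2.20 ± 0.15, adjusted p = 7.33e-05), with WT between 0.183 and 0.535. Cyp6g2 stood at 5.15 and 4.40 against 0.571, 0.820 and 0.252 (-1.91), and Cyp6a17 at 9.93 and 10.6 against 2.53, 2.77 and 3.26 (-1.55). The P450 list held 3 higher and 6 lower without RpS3 replicate 2, and 4 higher and 7 lower without RpS3 replicate 1.

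Growth and patterning pathways consisted mostly of long genes, and their calls were mostly falls, which were 25.1% of all genes tested. The share that fell was 50% of the Hippo and of the insulin and TOR genes and 26.9% of the patterning genes. Of 14 Hippo pathway genes 2 rose and 7 fell (median -0.18), but with the length trend removed 3 rose and 1 fell. The transcriptional coactivator yorkie (yki), which the pathway restrains, stood at 70.5 and 71.7 FPKM against 91.2, 98.7 and 89.2 (0.38 ± 0.07, adjusted p = 0.0064, limma), above the WT maximum of 77.5 in each RpS3puc library and called with the trend removed (adjusted p = 0.0267). Its DNA-binding partner scalloped (sd) stood at 141 and 137 against 70.7, 104 and 94.1 (-0.64), and the upstream regulator and target expanded (ex) at 76.6 and 79.7 against 36.3, 57.4 and 53.6 (-0.69), neither called with the trend removed (adjusted p = 0.177 and 0.262), nor ex without RpS3 replicate 2 (0.14). Of 14 insulin and TOR genes 1 rose and 7 fell (median -0.13), and with the length trend removed none rose and 2 fell. rictor, of TOR complex 2, stood at 16.2 and 16.1 against 8.19, 9.80 and 9.84 (-0.74 ± 0.10, adjusted p = 0.00237), also with the trend removed (adjusted p = 0.0338). Of 26 patterning genes 1 rose and 7 fell (median -0.11), but with the length trend removed 5 rose, none fell and the median was 0.13. Without RpS3 replicate 1 the genes that rose and fell in these 3 lists numbered 1 and 4, 0 and 4, and 0 and 4, and without RpS3 replicate 2 they numbered 1 and 2, 1 and 4, and 0 and 2. Without RpS3puc replicate 1, 5 patterning genes rose and 7 fell, and without RpS3puc replicate 2 none rose and 11 fell.

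Genes of cytokine signalling, cell death, repair and division were called lower in shares of 27.3%, 36.4%, 29.4% and 19.4%, against 25.1% of all genes tested, and higher in 0%, 18.2%, 0% and 19.4%, against 21.5%. Of 11 JAK/STAT genes none rose and 3 fell (median -0.16), and with the length trend removed 1 rose and 1 fell. The transcription factor Stat92E stood at 69.0 and 67.6 FPKM against 49.1, 55.3 and 52.9 (-0.38 ± 0.08, adjusted p = 0.00742, limma), and was not called with the trend removed (adjusted p = 0.158). Socs44A, a gene of the SOCS family of feedback inhibitors, fell in both (-0.29, adjusted p = 0.0306 and 0.0381), but not without RpS3 replicate 1 (0.13) or RpS3 replicate 2 (0.22). Of 11 apoptosis genes 2 rose and 4 fell, and with the length trend removed 1 and 3. Besides rpr, the caspase gene Damm fell from 1.61 and 1.53 to 0.851, 0.325 and 0.650 FPKM (-0.69) and the caspase gene Dredd rose from 45.9 and 43.3 to 54.8, 54.8 and 57.7 (0.32). Of 17 DNA repair genes none rose and 5 fell, and with the length trend removed 3 fell, among them the damage-recognition gene Xpc with 67.7 and 62.0 against 39.1, 47.9 and 43.8 FPKM (-0.56, adjusted p = 0.00432). Of 31 cell cycle genes 6 rose and 6 fell, with 3 and 3 once the trend was removed. The mitotic phosphatase string (stg) stood at 84.6 and 80.5 against 106, 120 and 95.0 FPKM (0.37, adjusted p = 0.0216), and the replication helicase subunit Mcm6 at 88.6 and 91.0 against 71.5, 70.9 and 69.1 (-0.34, adjusted p = 0.00657). stg and Dredd were not called without RpS3 replicate 2 (adjusted p = 0.16 and 0.12), nor Damm without RpS3 replicate 1 or RpS3 replicate 2 (0.11 in both). Without RpS3 replicate 1 the genes that rose and fell in these 4 lists numbered 0 and 1, 1 and 1, 0 and 3, and 2 and 2, and without RpS3 replicate 2 they numbered 0 and 1, 0 and 1, 0 and 2, and 0 and 1. Without RpS3puc replicate 2, 5 JAK/STAT genes and 2 apoptosis genes fell, and without RpS3puc replicate 3 only 2 cell cycle genes fell. In both settings 1 apoptosis gene rose.

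Genes of another tissue were prominent among the largest falls. All 7 fat body markers fell, with a median log2 difference of -3.26, and all 7 with the length trend removed. Their summed level was 120.0 and 142 FPKM in RpS3 discs and 4.92, 9.12 and 5.81 in RpS3puc discs, against a WT median of 90.0 (35.6 to 321). The 3 RpS3puc libraries were thus below every WT library in the sum. Fbp1, a receptor for the storage proteins, stood at 13.9 and 36.5 against 0.387, 0.513 and 0.624 FPKM (-3.97 ± 0.36, adjusted p = 0.00162, limma). The storage protein gene Lsp2 stood at 23.6 and 35.1 against 0.713, 1.60 and 0.523 (-3.97 ± 0.25, adjusted p = 0.000165). Fbp2 (-3.26), Lsp1alpha (-3.29), Lsp1beta (-3.05) and Lsp1gamma (-2.84) fell likewise. Obp99b, annotated as an odorant-binding protein, stood at 37.6 and 39.2 against 1.74, 4.21 and 1.72 (-3.54), and CG34166, which has no named function, at 14.7 and 24.1 against 1.05, 2.01 and 1.33 (-3.03). In bulk RNA, fewer cells of a type and less RNA per cell cannot be told apart.

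Other marker lists gave median differences of smaller size. Of 5 larval muscle markers tested 4 fell (median -1.05), and with the length trend removed 4 fell and 1 rose (median -1.06). Their list summed to 30.4 and 26.4 FPKM in RpS3 discs and to 15.4, 13.7 and 14.7 in RpS3puc discs, against 8.32 to 24.0 in WT. Tropomyosin 2 (Tm2) stood at 3.16 and 3.19 against 0.966, 0.951 and 1.13 (-1.05 ± 0.14, adjusted p = 0.00181, limma). Among 5 actin genes tested, 3 fell and 1 rose, and with the length trend removed 2 fell and 1 rose. The muscle actin Act87E stood at 97.9 and 105 against 51.2, 51.1 and 63.7 FPKM (-0.87) and Act88F, the actin of flight muscle, at 1.75 and 2.05 against 0.475, 0.275 and 0.118 (-1.18), while the cytoplasmic Act42A stood at 895 and 922 against 1144, 1045 and 1121 (0.28, not called without RpS3 replicate 1 or without RpS3 replicate 2, with adjusted p = 0.17 and 0.14). Haemocyte markers summed to 3.09 and 7.87 against 2.55, 0.821 and 1.40 FPKM, and salivary gland markers to 25.9 and 2.79 against 0.281, 6.43 and 1.53. The eye disc gene toy, a Pax6 transcription factor, stood at 19.2 and 6.9999 against 0.196, 0.114 and 0.227 FPKM (-3.43 ± 0.36, adjusted p = 0.00213), with WT between 0.771 and 2.85, whereas the eye genes ey (0.197 to 0.267 in the 5 libraries) and so (7.07 to 10.3) showed no such gap. Markers of the disc myoblasts, the muscle precursors attached to the disc, summed to 66.6 and 57.9 against 68.2, 70.4 and 75.8 FPKM, so that every RpS3puc library was above both RpS3 libraries. Of these 5 markers Him rose, from 13.3 and 13.5 to 20.0, 18.96 and 21.2 FPKM (0.55, adjusted p = 0.00316), and with the length trend removed Him, Mef2 and zfh1 were called higher (0.34, 0.46 and 0.47, adjusted p = 0.0267, 0.0138 and 0.0965). The part that carried-over tissue plays in other differences was not tested.

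**Figure D4:**
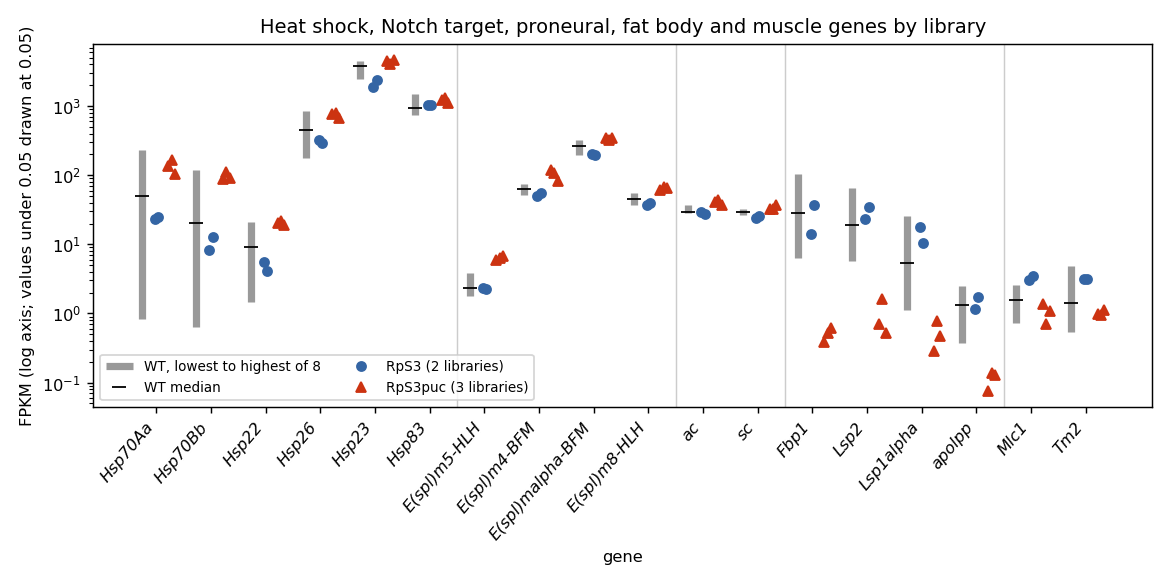
FPKM (log axis) of heat shock genes, Notch target genes of the Enhancer of split complex, proneural genes, fat body markers and muscle markers in RpS3 (blue circles) and RpS3puc (red triangles) libraries, with the range (grey bar) and median (black dash) of 8 WT libraries. The fat body markers Fbp1 and Lsp2 were under 2 FPKM in every RpS3puc library, and Hsp70Bb lay between 87.2 and 112 there, inside its WT range.

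A pair of uncharacterised genes had the largest differences of all genes named by the size rule. CG42319 was listed at 0 and 0.0591 FPKM in RpS3 discs and stood at 54.5, 69.3 and 56.8 in RpS3puc discs, against at most 1.93 in WT (log2 difference 5.89 ± 0.12, adjusted p = 3.26e-08, limma). CG14072 went the other way, with 51.9 and 39.8 in RpS3 discs, 0.167 in RpS3puc replicate 1 and 0 in the other 2 libraries (-5.46 ± 0.15, adjusted p = 2.73e-07). Its WT levels were at most 0.0876, so that the RpS3 libraries stood apart from both of the other groups. The gene c-cup stood at 1.76 and 0.978 against 11.4, 14.6 and 12.5 FPKM (2.56 ± 0.16, adjusted p = 4.6e-05), where WT was at most 0.073. Since log2(FPKM + 1) was used, these differences understate the change of genes with low levels.

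**Figure D5:**
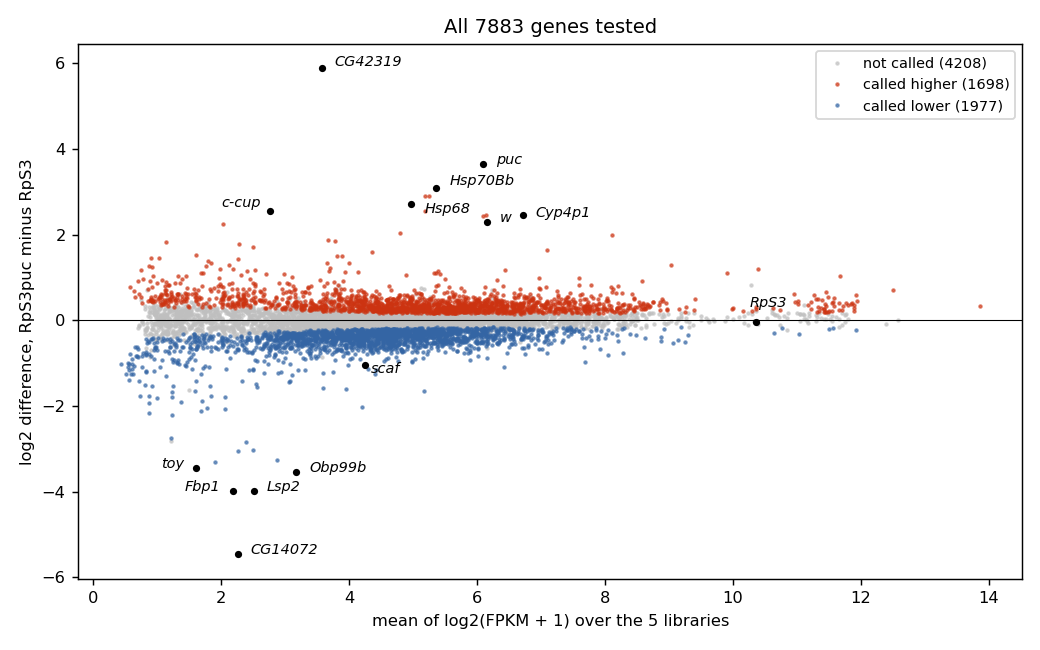
Log2 difference between RpS3puc and RpS3 against the mean of log2(FPKM + 1) over the 5 libraries for all genes tested, with called genes in red (1698 higher) and blue (1977 lower) and others in grey. CG42319 (5.89), puc (3.66) and heat shock genes lead the rises, and CG14072 (-5.46) and fat body genes the falls, while RpS3 lies near 0.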

How the data were processed

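RNA from whole wing discs was prepared by the TruSeq protocol and sequenced. The deposited tables hold 1 FPKM value per gene and library, made by the authors. That the unit is FPKM was read from the values, of which 97.3 to 97.6% in genes with a single transcript were whole multiples of 1 read within a tolerance of 0.02 in the 5 libraries, for values of 0.5 to 50 reads, which RPKM would show as well. BWA 0.6.2 and the build dm3 are named in the submitters' processing notes. The counting tool is not given in the sources used here. As the values are already divided by transcript length, length-dependent coverage is not removed by them. Names, chromosome arms and transcript lengths came from the BDGP6 annotation, which holds 13661 of the 13955 gene identifiers, and no coordinates were used. Genes whose identifiers it does not hold still entered the test over all genes where they passed the filter. They were left out of the length and arm summaries and of the setting with the length trend removed. Of the 7883 genes tested 7690 had a length. Lacking a name, such genes, esg among them, were not in the lists or examined singly, apart from single genes named from the study's tables.

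RpS3puc (3 libraries) and RpS3 (2 libraries) were compared with limma 3.58.1 (statmod 1.5.0, R 4.3.3) on log2(FPKM + 1), with a trended and robust variance, over genes that reached 1 FPKM in 2 or more libraries, and p-values were adjusted by Benjamini-Hochberg with a threshold of 0.1. All p-values are two-sided. The script was tested on simulated data. Named were puc, RpS3, the JNK lists, the 10 largest rises and 10 largest falls without overlap, up to 3 called members each way in every other list, cell type markers, and a few genes chosen after their values were seen. Not every gene the rule selects is reported here. The members of the comparison and all lists were chosen with earlier results of these data known, so lists are described by counts and medians without a test. The alternatives tried were an adjusted p of 0.05, a pseudocount of 0.1, no filter, a mean of at least 5 FPKM, median-of-ratios scaling, removal of the trend with length (a loess curve fitted to the log2 differences), all 19 libraries in 1 fit, a plain variance, the replicate number as a block, and leaving out each library.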

Additional observations from a re-analysis of the deposited data

Results flagged for a closer look

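In groups of 2 and 3 libraries no test for a library far from the others was made. Among the 8 WT libraries, which give the reference levels, 9 of 51 genes had a library far from the rest, where chance gives about 1 in 20. WT library 6 was the highest for the fat body genes Lsp1alpha (25.8 FPKM, next 8.36), Fbp2 (67.6, next 19.9) and Lsp1beta (40.5, next 17.3) and for CG34166 (62.3, next 29.7), so the upper ends of their WT ranges rest on it. The upper end for scaf (26.2, next 17.4) rests on WT library 4, and that for CG42319 (1.93, next 0.218) on WT library 3. The lower ends rest on 1 library each for wnd (23.5, next 27.3), Traf6 (18.7, next 22.9) and Tab2 (9.97, next 13.0).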

How the results depend on the processing

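The total, higher and lower counts of called genes moved by over 1.5 times with the length trend removed and without either RpS3 library. The total and the higher count, but not the lower count, also did so with all 19 libraries in 1 fit. Against 3675 called genes (1698 higher, 1977 lower), 1954 were called with the length trend removed (956 higher, 998 lower). All 19 libraries in 1 fit gave 2438 called genes (968 higher, 1470 lower). Leaving out each library in turn gave 1306 to 3792 called genes, of which 559 to 1775 were higher and 747 to 2017 lower, the fewest without RpS3 replicate 2. Settings without an RpS3 library leave 1 library in that group, whose spread is then taken from RpS3puc. The other settings kept each of these counts within 1.5 times, and neither the call of puc nor that of RpS3 changed in any setting. The muscle gene sls, at -0.18 and not called, was 0.73 and called higher with the length trend removed. With the replicate number as a block 3574 genes were called. Whether the numbers pair the samples cannot be told. Deviations from the group means correlated at 0.07 for replicate 1 and -0.14 for replicate 2. The deviations of the 2 RpS3 libraries are equal and opposite, so these values are not independent. Depth was nearly equal in the 5 libraries and its effect on precision was not tested.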

Other observations

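Several gene groups not described above moved in both directions. The shares that rose were 41.18% of proteasome subunits and 32.26% of cuticle protein genes, against 21.5% of all genes tested. Falls made up 5.88% and 22.58%, against 25.1%. After removal of the length trend, 12.4% of all genes with a known length rose and 13% fell. Of 34 proteasome subunits tested 14 rose and 2 fell (median log2 difference 0.12), but with the length trend removed 2 rose and 2 fell, and without RpS3 replicate 1 or RpS3 replicate 2 only 2 or 1 rose. Without RpS3puc replicate 3, 8 rose and 1 fell. The regulatory ATPase gene Rpt1 stood at 139 and 136 FPKM in RpS3 discs and at 189, 171 and 192 in RpS3puc discs (0.41), and was called with the trend removed (adjusted p = 0.0215, limma). Of 31 cuticle protein genes 10 rose and 7 fell, but with the length trend removed 5 rose and 10 fell, and without RpS3puc replicate 1, 5 rose and 2 fell. Cpr51A stood at 30.2 and 27.8 against 68.9, 63.2 and 44.7 FPKM (0.98), while the larval cuticle gene Lcp3 stood at 7.99 and 1.67 against 0.382, 0.489 and 0.416 (-1.78). The call of Lcp3 was lost when any of the 3 RpS3puc libraries was left out (adjusted p = 0.18, 0.13 and 0.12 without replicates 1, 2 and 3).

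Of 17 ecdysone response genes 1 rose (5.88%) and 3 fell (17.65%), against 21.5% and 25.1% of all genes tested. The difference was positive in 12 of the 17, with a median of 0.19. Their list summed to 1148 and 1383 FPKM in RpS3 discs and to 1437, 1889 and 3029 in RpS3puc discs, against 2069 to 3725 in WT. With the length trend removed 1 gene rose and none fell (median 0.54). Without RpS3puc replicate 1 the balance turned to 5 higher and 1 lower, and without RpS3 replicate 2 none was called. The ecdysone receptor gene EcR stood at 27.7 and 28.7 against 18.7, 23.7 and 18.7 FPKM (-0.46, adjusted p = 0.0142, limma), and was not called with the trend removed (adjusted p = 0.834) or without RpS3 replicate 2 (0.12). Of 20 autophagy genes 2 rose (10%) and 4 fell (20%), with 1 and 2 once the trend was removed and 5 and 4 without RpS3puc replicate 1. Among those that fell was Atg13 of the initiation complex, at 14.8 and 16.2 against 11.1, 11.2 and 10.8 FPKM (-0.45). Of 11 Toll pathway genes 1 rose and 1 fell, namely the NF-kappaB factor Dif, at 17.7 and 12.02 against 10.01, 9.79 and 8.27 FPKM (-0.60), which was not called with the trend removed (adjusted p = 0.126) or without RpS3 replicate 1 (0.17). In the main test 9.09% of the Toll genes rose and 9.09% fell, and with the trend removed 3 rose and none fell. Of 8 UDP-glycosyltransferases 1 rose (12.5%) and 2 fell (25%) in both settings. Of 2 antimicrobial peptide genes tested 1 fell, AttB, at 1.13 and 1.02 against 0.224, 0.4997 and 0.356 FPKM (-0.61). Neither gene of the Snail family found in the files reached the expression filter.

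Some genes outside the lists were named after their values were seen. The transcriptional elongation gene lilli, a member of the AF4/FMR2 family, stood at 10.5 and 11.4 FPKM in RpS3 discs and at 36.6, 61.1 and 49.1 in RpS3puc discs, against 10.2 to 13.3 in WT (log2 difference 2.03 ± 0.19, adjusted p = 0.00155, limma). CG31664, on arm 2L like c-cup, stood at 0.862 and 0.367 against 7.10, 7.65 and 5.28 FPKM, where WT was at most 0.0568 (2.25 ± 0.19, adjusted p = 0.00021, limma). Of 12 genes of the mitochondrial genome tested, 6 rose and none fell, with a median log2 difference of 0.51 and a median length of 864 nucleotides, and with the length trend removed 6 rose and none fell (median 0.39). On the X chromosome 17.2% of 1296 genes rose and 30.3% fell, and on chromosome 4, where the median length was 3965 nucleotides, 16.4% of 61 genes rose and 42.6% fell. On the arms of chromosomes 2 and 3 the shares lay between 21.7% and 24.1% for rises and between 23.1% and 24.2% for falls. With the length trend removed, 157 genes rose and 194 fell on the X chromosome (median log2 difference -0.03). On chromosome 4, 12 genes then rose and 7 fell (median 0.003). The shares on different chromosomes were not tested against each other.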
